A study of Mus musculus with 6 samples.

Results

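The genes described here encode the constitutive proteasome of mouse bone marrow-derived dendritic cell cultures. They were chosen by symbol, as protein-coding genes whose name starts with Psma, Psmb, Psmc, Psmd, Psme or Psmf followed by a digit, without the immunoproteasome genes Psmb8, Psmb9 and Psmb10. The rule found 44 of the 57132 genes listed. Of these, 16 belong to the core particle and 17 to the regulatory particle, 3 are assembly chaperones, 6 are activators or an inhibitor of the core, and 2, Psmc3ip and Psme3ip1, share only the letters of the symbol. The messenger RNA of 6 cultures was sequenced, 3 in medium without queuine (0Q, a queuine-depleted medium) and 3 in medium with queuine at 100 nM (100Q). In both groups the marrow was taken from female C57BL/6 mice 6 to 8 weeks old and grown in RPMI-1640 with dialyzed fetal bovine serum and recombinant murine GM-CSF at 15 ng/mL. Cells were fed on days 2 and 4, with queuine renewed in 100Q, and RNA was extracted with TRIzol on day 5. Cells were plated in triplicate, and nothing in the labels says that the wells came from separate mice or that cells were sorted, so p-values reflect variation among these wells alone, and that may be technical.

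The proteasome is the cell's main protease for proteins tagged with ubiquitin. Its core particle is a barrel of stacked rings, with outer alpha rings that form the gate and inner beta rings that hold the cutting sites. The regulatory particle caps the barrel: its ATPase ring and non-ATPase base unfold substrates and bind ubiquitin, and its lid removes the ubiquitin chain. In dendritic cells the peptides it makes feed MHC class I presentation, and inflammatory signals exchange the catalytic beta subunits for immunoproteasome versions. Cells insert queuine, as queuosine, into the tRNAs that read Asn, Asp, His and Tyr codons, so the codons it touches are those that end in U or C in these families.

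These codons are shown for 3 subunits, since they are where queuosine would be read. Each line gives the stretch of 120 coding bases with the most such codons, 5′ to 3′, from the GENCODE mouse release M39 transcript with the longest coding sequence. Capitals mark codons for Asn, Asp, His and Tyr. Psmd14, the lid deubiquitinase (chromosome 2), had the highest share ending in U of all members, and the stretch runs from codon 204 to 243. Psmd8, a lid subunit (chromosome 7), had the lowest share, and the stretch runs from codon 159 to 198. Psma6, an alpha ring subunit (chromosome 12), had the smallest p of the comparison below, and the stretch runs from codon 86 to 125.
Psmd14: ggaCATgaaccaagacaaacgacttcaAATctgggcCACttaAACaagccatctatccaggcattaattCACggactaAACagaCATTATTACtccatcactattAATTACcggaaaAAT
Psmd8: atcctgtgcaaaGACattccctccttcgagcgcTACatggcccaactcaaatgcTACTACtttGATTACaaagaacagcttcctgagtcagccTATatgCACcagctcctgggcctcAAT
Psma6: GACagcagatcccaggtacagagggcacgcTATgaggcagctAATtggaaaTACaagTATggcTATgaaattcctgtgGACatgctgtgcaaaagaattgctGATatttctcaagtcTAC
Of the 12 marked codons in the Psmd14 stretch 6 ended in U (T in the DNA), against 3 of 9 in Psmd8 and 5 of 9 in Psma6.

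Over whole coding sequences, 69.2% of these codons ended in U in Psmd14, 26.8% in Psmd8 and 37.5% in Psma6. Summed over the 16 core genes, 295 of 595 such codons ended in U (49.6%), and over the 17 regulatory genes 570 of 1196 (47.7%). The share over all tested genes with a complete coding sequence was 46.2%. In the core, Asp codons ended in U in 52.4% of cases and Tyr codons in 50.6%, against 47.5% and 45.0% over all tested genes. For Asn and His codons the shares were 46.6% and 45.1%, against 46.4% and 44.8%. The alpha ring genes had a median of 56.3% (range 37.5% to 68.8%) and the beta ring genes 42.7% (28.6% to 58.3%). These 2 medians lay on either side of that for tested genes with at least 20 such codons, 44%, but the ranges of the rings overlapped. The codons made up a median of 14.2% of all codons in the 44 members and 13.7% in tested genes. Across the 43 tested members Spearman rho between the share ending in U and the fold change was 0.16 (Pearson r 0.11). It was 0.45 over the 23 members at 100 CPM or more, 0.38 over 14 core genes without Psma8 and Psmb11, and -0.06 over the 17 regulatory genes. These are descriptions over genes measured in the same libraries, not tests.

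**Figure D1:**
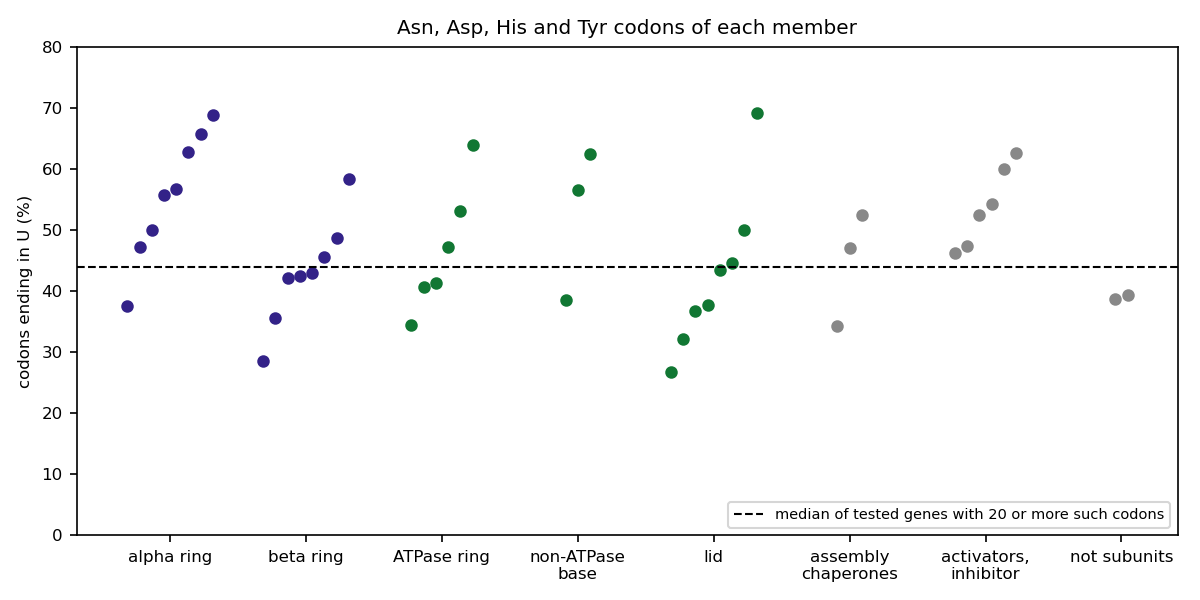
Share of Asn, Asp, His and Tyr codons that end in U (vertical axis, percent) in each of the 44 members, grouped by role; each point is 1 gene and the dashed line is the median of 44% over tested genes with at least 20 such codons. The lid spans the whole range, from Psmd8 at 26.8% to Psmd14 at 69.2%.

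Total counts ran from 3675931 to 6755398 per 0Q library and from 4484793 to 19386617 per 100Q library, the largest being 100Q replicate 3. The cultures carried the dendritic markers Itgax and H2-Aa (482 to 666 CPM), while Zbtb46 and Flt3 stayed at or below 3.16 and 5.48 CPM. Itgax had 67.6, 115 and 113 CPM in 0Q (replicates 1, 2 and 3) against 150, 147 and 123 CPM in 100Q. Its 100Q libraries lay wholly above 0Q, as in 4.41% of all tested genes. The log2 fold change was 0.51 (SE 0.19, unadjusted p = 0.0174, adjusted p = 0.999 by edgeR). CPM are counts relative to the library total scaled by TMM factors (trimmed mean of M values). Markers of neutrophils and their precursors were abundant, with a summed level over 8 genes of 16879 to 19798 CPM in 0Q and 14077 to 17157 CPM in 100Q. All 8 had estimates below 0 in 100Q, as did 120 of the 153 tested genes at 1000 CPM or more. By edgeR, 3 of the 8 had an unadjusted p under 0.05, Camp (0.00620), Ly6g (0.0236) and Ngp (0.0351), with adjusted p of 0.999. In these 3 genes 100Q lay wholly below 0Q. Over all tested genes 2.93% had such an unadjusted p and 3.84% lay wholly below. The 2 eosinophil genes summed to 1317 to 1597 CPM in 0Q and 1196 to 1611 CPM in 100Q. The 4 mast cell and basophil genes summed to 211 to 324 and 198 to 231 CPM, and all 4 had estimates below 0. The B cell and erythroid lists stayed at or below 28.7 and 54.6 CPM. The T cell list was near 0, with Cd3e at 0 counts in all 6 libraries, and so was the stromal list. The summed level over 6 dendritic genes, most of it from H2-Aa and H2-Ab1, was 848 to 996 CPM in 0Q and 893 to 993 CPM in 100Q. Of these 6 genes 4 had estimates above 0 and 2 below. Over 5 monocyte and macrophage genes the sum was 1016 to 1288 and 928 to 1284 CPM. The part of these cells in the proteasome values was not tested, and in bulk RNA fewer cells of a type cannot be told apart from less RNA per cell.

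To ask whether queuine supply changes proteasome mRNA, 100Q was compared with 0Q over the whole table. No gene of the constitutive proteasome passed the test. By edgeR's quasi-likelihood test, 0 of 43 tested members reached an adjusted p under 0.05, against 0% of all 10554 tested genes, and the smallest adjusted p of a member was 0.999. At an unadjusted p under 0.05 there was 1 member, Psma6, against 2.93% of all tested genes (1.16% of tested genes lower and 1.77% higher in 100Q). DESeq2 and limma-voom each called 0 members and 0 of all tested genes. Each also had 1 member at an unadjusted p under 0.05, against 356 and 302 of the 10554 tested genes. Estimates lay below 0 for 9 of 15 tested core members, whose median log2 fold change was -0.03, and for 11 of 17 regulatory members, with a median of -0.07. The median over all tested genes was 0.00, and over the 1175 tested genes from 100 to 1000 CPM it was -0.06 with 781 estimates below 0. Over the 4928 tested genes from 10 to 100 CPM it was 0.02, with 2377 below 0. The median level of the regulatory members, 90.6 CPM, lay in this lower band. Without 0Q replicate 1 the medians were 0.05 for the core and 0.04 for the regulatory particle, and without 100Q replicate 2 the regulatory median was 0.0094, so their sign rested on single libraries. For 27 of the 43 members, 13 of them in the core and 11 in the regulatory particle, both ends of the 95% interval stayed inside a change of 1.5-fold, and for the others at least 1 end did not.

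**Figure D2:**
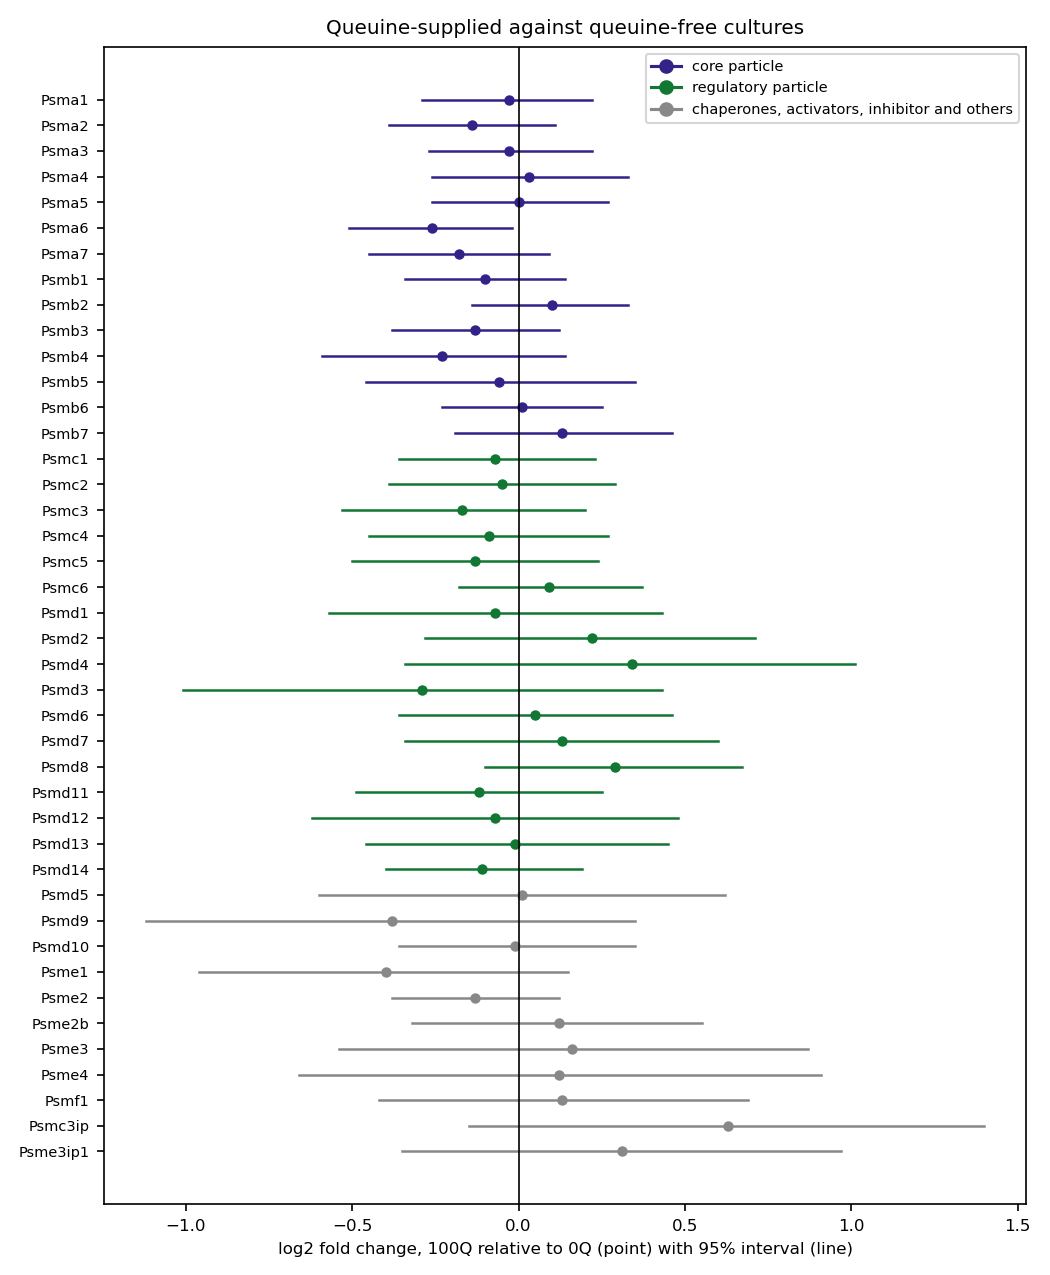
Log2 fold change of 100Q relative to 0Q (horizontal axis) for 42 tested members, points with 95% intervals as lines, coloured by particle. Psma8, whose interval runs from -1.60 to 2.19, is not drawn. All intervals cross 0 except that of Psma6, which runs from -0.51 to -0.02.

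The alpha ring genes were abundant in both groups, apart from the testis form Psma8. Psma2 was its most abundant member by CPM, with 1233, 1025 and 1187 CPM without queuine (replicates 1, 2 and 3, the order kept below) against 1046, 907 and 1178 CPM with it. Its groups overlapped, and the log2 fold change was -0.14 (SE 0.12, 95% interval -0.39 to 0.11). Psma7 had 1122 ± 187 CPM without queuine against 988 ± 109 CPM with it (SD, n = 3 each), and the log2 fold change was -0.18 (SE 0.13). Psma6 (ENSMUSG00000021024, chromosome 12, 55431007 to 55467094, GRCm39) had 540, 466 and 546 CPM without queuine against 442, 411 and 442 CPM with it. All 3 libraries of 100Q lay below those of 0Q, with 466 CPM in 0Q replicate 2 next to 442 CPM in 100Q. The log2 fold change was -0.26 (SE 0.12, unadjusted p = 0.0380, adjusted p = 0.999 by edgeR). Of the 43 tested members 2, Psma6 and Psme1, had 100Q wholly below 0Q and 0 wholly above, against 3.84% and 4.41% of all tested genes, or 8.24% in either direction. Across settings Psma6 kept a negative estimate, from -0.34 to -0.22 with 1 library left out, but its unadjusted p rose above 0.05 without a filter on low counts, with the transcript length trend removed, and without any 1 library other than 0Q replicate 2. Psma1, Psma3, Psma4 and Psma5, which complete the ring, had estimates from -0.03 to 0.03 at mean levels over the 6 libraries of 242 to 533 CPM. Psma8, a testis form of the alpha ring related to Psma7, had 0 to 4.94 CPM and 137 counts in all. Its coding sequence was 74.8% identical to that of Psma7, and its interval of -1.60 to 2.19 says little.

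Per kilobase of coding sequence, the beta ring held both the highest and the lowest of the 14 well-measured core genes, Psmb2 and Psmb5. Psmb2, a non-catalytic subunit, had 1123, 881 and 1009 CPM without queuine against 1125, 1017 and 1078 CPM with it, with overlapping groups and a log2 fold change of 0.10 (SE 0.11). The catalytic subunits differed widely in CPM. Psmb6, which carries the caspase-like site, had 1049, 874 and 1044 CPM without queuine against 1101, 897 and 985 CPM with it. Psmb7, which carries the trypsin-like site, had 114, 110 and 133 CPM without queuine against 137, 118 and 135 CPM with it. Psmb5, which carries the chymotrypsin-like site and is the main target of bortezomib, had 88.8, 63.3 and 80 CPM without queuine against 84.2, 70.8 and 68.3 CPM with it. In all 3 genes the groups overlapped. Their log2 fold changes were 0.01 (SE 0.12) for Psmb6, 0.13 (SE 0.15) for Psmb7 and -0.06 (SE 0.19) for Psmb5. Psmb4, a non-catalytic subunit, had the smallest p of the ring (adjusted p = 0.999 by edgeR), with 120, 108 and 104 CPM without queuine against 101, 76.0 and 106 CPM with it. In it 100Q replicate 2 was the low library, and the log2 fold change was -0.23 (SE 0.17). Psmb1 and Psmb3 had estimates of -0.10 (SE 0.11) and -0.13 (SE 0.12). Psmb11, the form of thymic cortical epithelium, was at 0 counts in each of the 6 libraries. A count of 0 allows a level of up to 3 counts, or 0.155 to 0.816 CPM by library, for counting error only. It was the only member not tested.

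The ATPase ring had closely spaced levels. Its 6 genes had means over the 6 libraries of 150 to 233 CPM, and 5 of 6 estimates lay below 0, the lowest at -0.17. Psmc4 was the most abundant by CPM, with 284, 205 and 233 CPM without queuine against 259, 163 and 253 CPM with it. Psmc3 had the smallest p of the ring, with 222, 147 and 170 CPM without queuine against 173, 129 and 178 CPM with it. In both genes 0Q replicate 1 was the highest library, 100Q replicate 2 the lowest, and the groups overlapped. The log2 fold changes were -0.09 (SE 0.17) for Psmc4 and -0.17 (SE 0.17) for Psmc3. The other ATPases, Psmc1, Psmc2, Psmc5 and Psmc6, had estimates of -0.07, -0.05, -0.13 and 0.09.

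In the base and lid, median levels over genes were lower than in the ATPase ring (191 CPM), at 40.3 CPM for the 3 base genes and 62.7 CPM for the 8 lid genes, though Psmd14 of the lid lay above all 6 ATPases. Psmd4, a ubiquitin receptor, had 22.7, 15.7 and 14.7 CPM without queuine against 25.1, 25.5 and 17.1 CPM with it. Its groups overlapped through 0Q replicate 1 and 100Q replicate 3, and the log2 fold change was 0.34 (SE 0.32, 95% interval -0.34 to 1.01). Psmd2, a scaffold of the base like Psmd1, had 56.5, 113 and 133 CPM without queuine against 133, 110 and 108 CPM with it. Here 0Q replicate 1 lay far below the other 5 libraries, and the log2 fold change of 0.22 (SE 0.23) was -0.07 without it. Psmd1 had 41.2 ± 7.62 CPM without queuine against 39.4 ± 5.69 CPM with it (SD, n = 3 each). Psmd14, the deubiquitinase of the lid shown above, was the most abundant of the 17 regulatory members, which leave out the lid gene Sem1 (mean 1029 CPM). It had 364, 309 and 386 CPM without queuine against 355, 264 and 364 CPM with it. Its groups overlapped, with a log2 fold change of -0.11 (SE 0.14). Psmd8 had the smallest p of the lid (adjusted p = 0.999 by edgeR), with 69.7, 91.4 and 83.6 CPM without queuine against 117, 92.7 and 89.1 CPM with it. Its 0Q replicate 2 lay between 100Q replicates 2 and 3, and the log2 fold change was 0.29 (SE 0.18). The remaining lid genes Psmd3, Psmd6, Psmd7, Psmd11, Psmd12 and Psmd13 had estimates from -0.29 (Psmd3, at 15.7 CPM) to 0.13 (Psmd7), and all had overlapping groups.

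**Figure D3:**
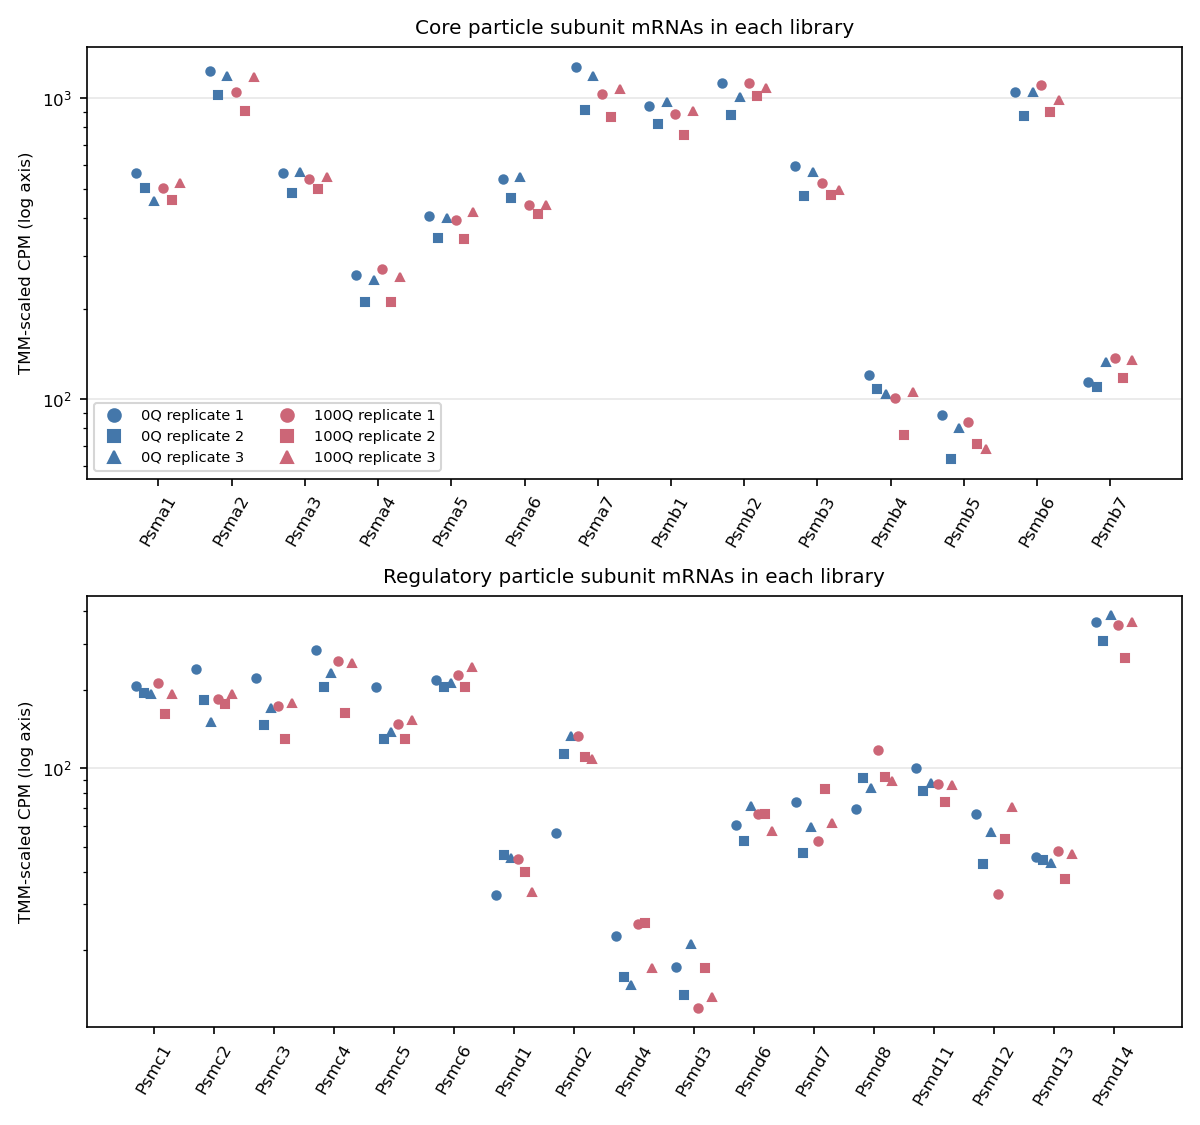
TMM-scaled CPM (vertical log axis) of 14 core genes (upper panel, without Psma8 and Psmb11) and 17 regulatory genes (lower panel) in each library, blue for 0Q and red for 100Q, with a symbol for each replicate number. The groups overlap in every gene except Psma6, and 0Q replicate 2 and 100Q replicate 2 (squares) sit low in most core genes.

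Core subunits were low in the same libraries, 1 in each group. Of the 14 core genes left after Psma8 and Psmb11, 6 were lowest in 0Q replicate 2 and 7 in 100Q replicate 2, and 6 were highest in 0Q replicate 1. The median deviation of the 15 tested core genes from their own mean was 0.18, -0.14 and 0.09 on the log2 scale (CPM plus 1) for the 0Q libraries and 0.02, -0.14 and 0.05 for those of 100Q. For the regulatory genes it was 0.15, -0.13 and 0.02, and 0.07, -0.07 and 0.04. The summed level of the tested core genes was 8215 ± 835 CPM without queuine against 7831 ± 631 CPM with it (SD, n = 3 each), and that of the regulatory genes 2101 ± 183 and 2057 ± 197 CPM. Their ratio moved less, from 3.79 to 4.05 in 0Q and from 3.76 to 3.88 in 100Q. The same libraries differed in how counts ran with transcript length. Across tested genes, the deviation of a gene correlated with its transcript length at a rho of -0.20 in 0Q replicate 1, and of 0.13 in both 0Q replicate 2 and 100Q replicate 2. Nuclear rRNA took 0.244% of counts in 0Q replicate 1 and 0.120% to 0.141% in the others. With the length trend of each library removed the core median was -0.03 and the regulatory median -0.05. Replicate spread within groups was a median of 9.79% of the mean for core genes and 17.3% for regulatory genes, against 11.8% for tested genes from 100 to 1000 CPM and 23.5% for those from 10 to 100 CPM.

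Subunits whose places in the particles are equal in number were far from equal in mRNA. The order below leaves out Psmb8, Psmb9 and Psmb10, which can fill the places of Psmb5, Psmb6 and Psmb7. Their means were 80.3, 61.9 and 41.9 CPM per coding kilobase. Levels were compared as CPM per kilobase of coding sequence, since the transcripts' annotated ends differ widely, and as CPM per kilobase of whole transcript beside it. In the core, the order per coding kilobase ran from Psmb2 (1618 ± 143, SD over 6 libraries) through Psma2 (1562 ± 177), Psma7 (1390 ± 205) and Psmb6 (1333 ± 122) down to Psmb7 (150 ± 14.2), Psmb4 (122 ± 17.4) and Psmb5 (95.8 ± 12.6). From top to bottom this was 16.9-fold over 14 genes, and per kilobase of whole transcript 26.1-fold. The first 4 genes each overlapped the next in range over libraries, and so did Psmb7 with Psmb4 and Psmb4 with Psmb5. Compared within each library, Psma2 lay above Psma7, Psmb6 above Psmb1 and Psmb4 above Psmb5 in all 6. Psmb2 lay above Psma2 in 3 libraries, Psma7 above Psmb6 in 4 and Psmb7 above Psmb4 in 5. Gaps without overlap lay between Psmb1 and Psmb3, between Psma5 and Psma4 (297 ± 31.3), and between Psma4 and Psmb7. The order depended on the length used. Per kilobase of whole transcript Psma7 (1100) and Psmb6 (940) led, and Psmb2 fell to rank 8, while Psmb5 and Psmb4 stayed the lowest of the 14.

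The median regulatory gene lay lower than the median of the 15 tested core genes on both scales. It had 68.0 against 614 CPM per coding kilobase, and 42.7 against 256 per kilobase of whole transcript, but single genes crossed. Psmd14, for example, lay above Psma4, Psmb7, Psmb4 and Psmb5 per coding kilobase. Among the 17 regulatory members, Psmd14 led at 331 ± 43.9 CPM per coding kilobase (SD over 6 libraries). Next came Psmc6 (187 ± 12.9) and Psmc4 (183 ± 34.0), which did not differ beyond their spread. The 6 ATPases held the ranks from 2 to 7, each overlapping its neighbour in range. Within libraries, Psmc4 lay above Psmc1 in all 6, and the other neighbours among them kept this order in 3 to 5. At the lower end were Psmd4 (16.3 ± 3.95), Psmd1 (13.1 ± 1.98) and Psmd3 (8.68 ± 1.89), 38.1-fold under Psmd14 at the last. The regulatory particle genes Sem1 and Adrm1, which the symbol rule leaves out, lay beyond both ends at 3650 and 6.81. Per kilobase of whole transcript Psmc4 (160) led over Psmd14 (134), and Psmd4 (5.95) was lowest, under Psmd3 (7.73). Over the 6 libraries, the median per coding kilobase was 606 to 714 in the 14 core genes without Psma8 and Psmb11. In the regulatory particle it was 64.6 to 86.4. The median of these 14 core genes was 9.75 ± 0.510 times the regulatory one in 0Q and 8.85 ± 1.59 times in 100Q (SD, n = 3 each). Core genes encode 214 to 302 codons and regulatory genes 321 to 1028. Level per coding kilobase fell with coding length across the 31 core and regulatory genes (Spearman rho -0.80) and across 9352 tested genes (rho -0.62). Coding length is the divisor of this level, so part of both correlations is built in. The part of length in the difference between particles was not tested, and the sources used here do not say whether reads were spread along the transcripts.

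**Figure D4:**
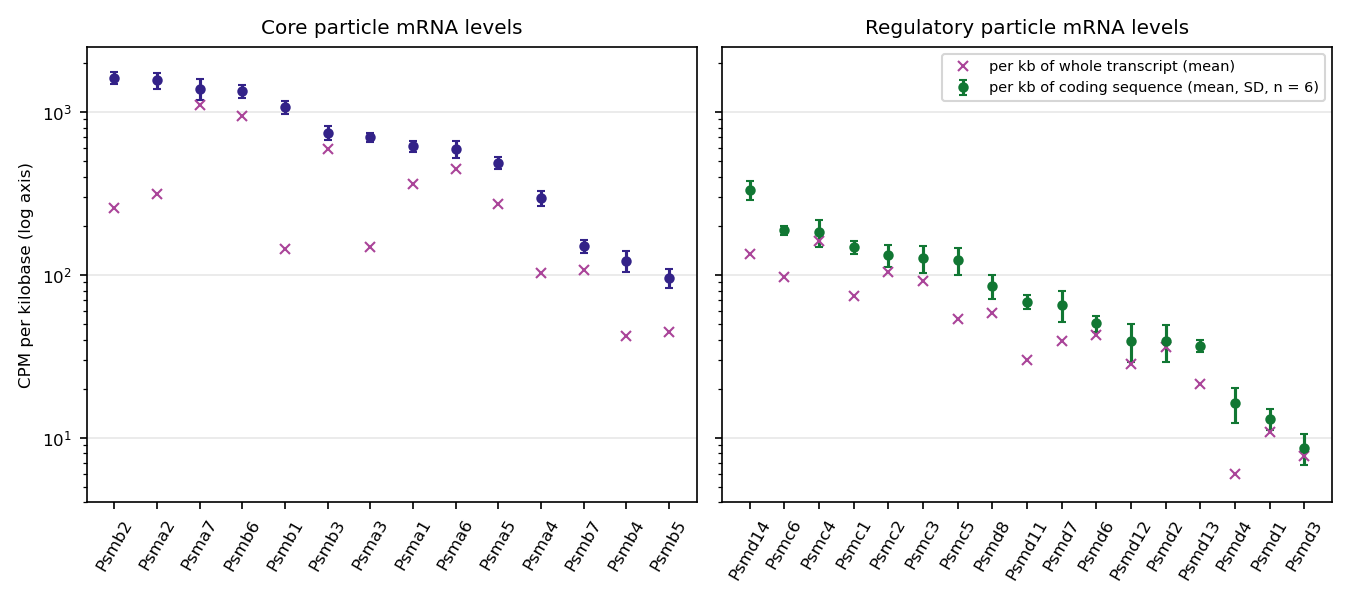
Mean CPM per kilobase (vertical log axis) of 14 core genes and 17 regulatory genes in order of level per coding kilobase. Filled points are per kilobase of coding sequence with SD over 6 libraries, and crosses are per kilobase of the whole transcript. Psmb5 is the lowest core gene of the 14 at 95.8 and Psmd3 the lowest of the 17 regulatory genes at 8.68.

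Among the activators, Psme2, the beta subunit of the interferon-responsive cap PA28, was far above its partner. Psme2 had 388, 332 and 383 CPM without queuine against 328, 333 and 346 CPM with it, and its groups overlapped through 0Q replicate 2. Psme1, the alpha subunit, had 28.0, 32.3 and 35.6 CPM without queuine against 23.2, 21.7 and 27.3 CPM with it. All 3 libraries of 100Q lay below those of 0Q, with 28.0 CPM in 0Q replicate 1 beside 27.3 CPM in 100Q replicate 3. The log2 fold change of Psme1 was -0.40 (SE 0.26, adjusted p = 0.999 by edgeR), and that of Psme2 -0.13 (SE 0.12). Psme2b, a copy of Psme2 with 99.3% identity over 720 aligned coding bases, had 45.6 ± 1.97 CPM without queuine against 49.6 ± 4.95 CPM with it (SD, n = 3 each), and the division of reads between these copies is uncertain. Psme3, the nuclear cap PA28 gamma, Psme4, the cap PA200, and Psmf1, the inhibitor PI31, had estimates of 0.16, 0.12 and 0.13 at mean levels of 20 to 30.4 CPM.

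The groups overlapped in all 3 assembly chaperones with Psmd names. Psmd10, also called gankyrin, had 101, 123 and 97.8 CPM without queuine against 118, 91.6 and 110 CPM with it, and the log2 fold change was -0.01 (SE 0.17). Psmd9 had 22.1, 18.1 and 11.9 CPM without queuine against 11.8, 15.0 and 13.4 CPM with it, and the log2 fold change was -0.38 (SE 0.35). It was -0.18 without 0Q replicate 1 and -0.59 without 0Q replicate 3. For Psmd5 the log2 fold change was 0.01 (SE 0.29). Psmc3ip, a cofactor of meiotic recombination, had 10.0, 16.6 and 18.9 CPM without queuine against 32.9, 23.8 and 14.1 CPM with it. Its groups overlapped, and its estimate of 0.63 (SE 0.37) was the highest of all members. It was 0.40 without 0Q replicate 1, 0.30 without 100Q replicate 1 and 0.91 without 100Q replicate 3, where its unadjusted p fell under 0.05. The antisense gene Mlx, with a mean of 51.3 CPM, overlaps it, and the strandedness of the libraries is not given in the sources used here. For Psme3ip1, which binds Psme3, the estimate was 0.31 (SE 0.31). It had a mean of 18.8 CPM, and the antisense gene Rspry1, with a mean of 19.2 CPM, overlaps it.

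The immunoproteasome subunits, which take the place of the catalytic ones, were also measured. Psmb8 had 72.0, 78.6 and 66.4 CPM without queuine against 60.6, 55.8 and 65.6 CPM with it. Its 100Q libraries lay wholly below 0Q, as in 3.84% of all tested genes. Psmb9 had 44.6, 40.1 and 46.9 CPM without queuine against 50.8, 29.3 and 38.1 CPM with it, and Psmb10 36.4, 32.7 and 46.4 CPM without queuine against 37.3, 21.9 and 36.6 CPM with it. Both overlapped. Of the 3 genes 0 passed the test, against 0% of all tested genes. Their log2 fold changes were -0.25, -0.15 and -0.26 (unadjusted p = 0.192, 0.537 and 0.347 by edgeR). Each was set against the constitutive subunit it replaces, as a ratio of counts per kilobase of transcript. Psmb8 to Psmb5 was 0.960 ± 0.243 in 0Q and 0.823 ± 0.124 in 100Q, and Psmb9 to Psmb6 was 0.0477 ± 0.00188 and 0.0420 ± 0.00723 (SD, n = 3 each). Psmb10 to Psmb7 was 0.278, 0.258 and 0.302 in 0Q and 0.236, 0.161 and 0.235 in 100Q, with all 100Q libraries below those of 0Q. By exact two-sided permutation tests on log2 ratios p was 0.5, 0.4 and 0.1, and 0.5, 0.5 and 0.3 adjusted over the 3 ratios. The smallest p that 3 against 3 libraries allow is 0.1, so none could pass 0.05. An antisense gene, Nek6, with a mean of 85.3 CPM overlaps Psmb7, so reads of these genes may not be told apart.

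**Figure D5:**
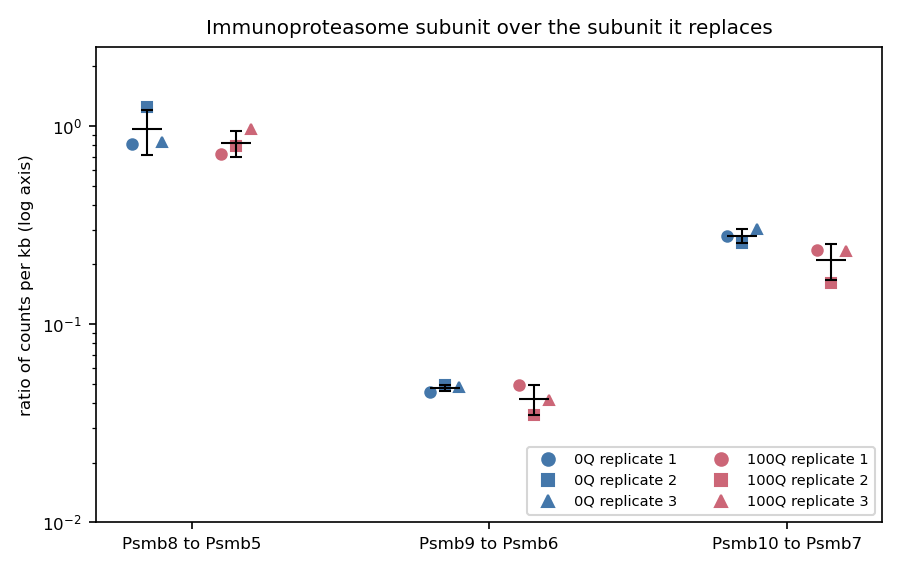
Ratio of counts per kilobase (vertical log axis) of each immunoproteasome subunit to the constitutive subunit it replaces, in each library (symbols), with mean and SD over 3 libraries of a group (black). The groups overlap for Psmb8 to Psmb5 and Psmb9 to Psmb6 and do not for Psmb10 to Psmb7.

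Among other genes of the pathway 0 were called in each list, as among all 10554 tested genes. Psmg1, Adrm1 and Vcp had groups without overlap, as did 8.24% of all tested genes in either direction. By edgeR, the unadjusted p was under 0.05 for Psmg1 (0.0364) and Vcp (0.00804), and for 2.93% of all tested genes. Of 5 further assembly chaperones 2 had estimates above 0. Pomp, the maturation factor of the core, had 723 ± 36.9 CPM in 0Q and a log2 fold change of -0.01 (SE 0.11). Psmg1, a chaperone of the alpha ring, had 20.2, 15.8 and 8.89 CPM without queuine against 28.3, 20.6 and 27.9 CPM with it. Its 100Q libraries lay wholly above 0Q, by a margin of 20.2 to 20.6 CPM (log2 fold change 0.77, SE 0.34, adjusted p = 0.999 by edgeR). Of 7 other proteins of the regulatory particle or bound to it, 3 were above 0. Sem1, the smallest lid subunit, had 1044 ± 46.3 CPM in 0Q and a log2 fold change of -0.04 (SE 0.10). Adrm1, a ubiquitin receptor, had 10.4, 10.2 and 10.3 CPM without queuine against 7.98, 4.84 and 8.83 CPM with it, with 100Q wholly below (log2 fold change -0.49, SE 0.43).

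The transcription factor Nfe2l1, which raises proteasome genes when the proteasome is impaired, had 1.51 to 10.8 CPM in 0Q and 5.23 to 11.0 CPM in 100Q. In its list of 6 genes 5 were tested and 4 had estimates above 0. Vcp, the ATPase that extracts ubiquitinated proteins and Nfe2l1 from the ER membrane, had 22.3, 19.6 and 12.8 CPM without queuine against 35.9, 41.9 and 25.8 CPM with it. The 100Q libraries lay wholly above 0Q (log2 fold change 0.91, SE 0.30, 95% interval 0.27 to 1.54, adjusted p = 0.999 by edgeR). Nfe2l2, the most abundant of the list, had 163 ± 12 CPM in 0Q and an estimate near 0 (SE 0.14). Of 6 genes for ubiquitin and its activating enzymes, 3 were above 0 and 3 below. Ubb, a polyubiquitin gene, had 3424 ± 384 CPM in 0Q and a log2 fold change of -0.09 (SE 0.11), and Rps27a, a ubiquitin fusion gene, one of -0.14 (SE 0.10). Of 7 ubiquitin shuttles and receptors 4 were above 0, with Sqstm1 at -0.06 (SE 0.19) and Rad23b at -0.36 (SE 0.33).

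Promoters were read to see what the members share that their names do not fix. RefSeq promoters on GRCm38.p6, 250 bases before to 50 after the start, were matched for 37 of the 44 members. In all, 9 motifs were searched on both strands. Nfe2l1 binds antioxidant response elements, whose core was searched as TGACNNNGC, with N for any base. It was found in 6 of 37 members, or 16.2%, against 14% of 27025 genes with a promoter and 17.3% of the 7837 tested ones. Among them were the catalytic subunits Psmb5 and Psmb6, which were far apart in level (95.8 and 1333 CPM per coding kilobase), so both are shown as the 150 bases before the start, 5′ to 3′ on the gene's strand, with the match in capitals.
Psmb5, chr14:54617996-54618145, minus strand: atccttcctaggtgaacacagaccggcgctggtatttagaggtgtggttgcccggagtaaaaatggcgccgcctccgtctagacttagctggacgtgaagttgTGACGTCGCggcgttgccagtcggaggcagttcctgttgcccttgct
Psmb6, chr11:70525207-70525356, plus strand: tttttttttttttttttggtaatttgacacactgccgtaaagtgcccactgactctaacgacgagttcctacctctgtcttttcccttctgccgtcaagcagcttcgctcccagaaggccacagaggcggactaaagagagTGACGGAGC
The match began 47 bases before the start in Psmb5 and 9 bases before it in Psmb6.

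The core of ETS factor sites, CGGAAG, had the widest gap between the particles in the share of promoters that hold it. It was found in 13 of 14 regulatory promoters and 5 of 12 core promoters, and in 22 of all 37 (59.5%), against 18.8% of all genes and 38.6% of tested genes. It was singled out after these counts were seen. The regulatory genes with the highest and lowest level per coding kilobase among those with a match in the 150 bases before the start are shown, with the match in capitals, which in Psmd14 reads on the other strand.
Psmd14, chr2:61711544-61711693, plus strand: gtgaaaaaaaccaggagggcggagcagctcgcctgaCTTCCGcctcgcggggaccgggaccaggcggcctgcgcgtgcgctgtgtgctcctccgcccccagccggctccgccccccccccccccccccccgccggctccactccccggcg
Psmd1, chr1:86064469-86064618, plus strand: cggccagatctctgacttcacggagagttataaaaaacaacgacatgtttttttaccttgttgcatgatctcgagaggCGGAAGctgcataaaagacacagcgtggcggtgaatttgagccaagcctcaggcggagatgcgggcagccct
The match began 114 bases before the start in Psmd14 and 72 in Psmd1, whose levels were 331 and 13.1 CPM per coding kilobase. The NF-Y box CCAAT was found in 7 of 12 core and 4 of 14 regulatory promoters (43.5% of tested genes), and the GC box GGGCGG in 5 of 12 and 10 of 14 (68.4% of tested genes). The TATA box TATAAA was found in 3 of the 37 members (8.9% of tested genes), the E-box CACGTG in 4 (12.4%) and the CRE TGACGTCA in 0 (3.7%). The NRF-1 palindrome was found in 1 (2.5% of tested genes) and the ZNF143 site in 2 (5.1%). Matches of different motifs may overlap. A match says only that the letters are in the window.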

How the data were processed

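Expected counts for each Ensembl gene were deposited by the authors in 1 table, not normalized, with 1 column per library and 0 columns unused here. FastQC, STAR, RSEM and mm39 (GRCm39) are named in the submitters' processing notes, without versions. The sources used here give neither the annotation release nor the strandedness. RSEM divides ambiguous reads between genes, so values of near-identical copies are uncertain. Reads of overlapping genes may not be told apart either. Among such pairs, same-strand genes overlap Psmd1 (mean 40.3 CPM, Gm21972 at 11.0) and Psmd13 (44.3 CPM, Gm15542 at 10.8). The antisense gene Atg4a (31.2 CPM) overlaps Psmd10 (107 CPM).

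Symbols, positions, lengths and coding sequences came from GENCODE M39 on the same build, matched for 56630 of 57132 identifiers. Expected counts were rounded. The test was that of edgeR 4.0.16, run in R 4.3.3 (filterByExpr, TMM, robust glmQLFit, glmQLFTest), with Benjamini-Hochberg adjustment over all 10554 tested genes and a threshold of 0.05. The fit was tested on simulated data. SE is the absolute log2 fold change over the root of F. Alternatives were DESeq2 1.42.0, limma-voom (limma 3.58.1), other scalings and filters, thinning, length trend removal, a replicate block and each library left out. Chi-square values per gene between 8.73 and 19.5 showed no library to be a copy of another.

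Levels per coding kilobase were added beside those per transcript kilobase after values had been seen. The members and lists were chosen with earlier results of these data known. Genes given library by library were the catalytic subunits, Psmd14, Psmd4, the most abundant member and the smallest p of each role, members at p under 0.05 or without overlap, and the most abundant and smallest p of each companion list.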

Additional observations from a re-analysis of the deposited data

How the results depend on the processing

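The count of members called was 0 in every setting run. Over all tested genes it was also 0, except for 2 of 11070 genes without 0Q replicate 1 and 1 of 10975 without 0Q replicate 2. The core median of -0.03 lay between -0.05 and 0.00095 and the regulatory median of -0.07 between -0.08 and -0.03 in the settings that kept all libraries. Over omitted libraries they ranged from -0.11 to 0.05 and from -0.09 to 0.04. The SD between replicates of the members' median deviation was 0.14 and 0.11. Of 18 named members, 0 changed a call. Signs changed in 11 of 108 values with a library left out and in 5 of 144 others, all close to 0. Psmb6 was -0.0038 with RLE scaling and -0.0036 by DESeq2, and Psmd10 was 0.02 with library totals, 0.005 without a filter on low counts and 0.02 with the length trend removed. Over omitted libraries Psmb5 ranged from -0.19 to 0.06, Psmb6 from -0.08 to 0.07, Psmc3 from -0.30 to 0.02, Psmc4 from -0.21 to 0.08, Psmd10 from -0.09 to 0.09, Psmd14 from -0.20 to 0.02 and Psmd2 from -0.07 to 0.46. Without a change of sign, Psma2 ranged from -0.23 to -0.05, Psmb2 from 0.0021 to 0.18, Psmb4 from -0.32 to -0.10, Psmb7 from 0.07 to 0.21, Psmd4 from 0.23 to 0.56, Psmd8 from 0.15 to 0.37, Psmd9 from -0.59 to -0.18, Psme2 from -0.21 to -0.09 and Psmc3ip from 0.30 to 0.91. The cause was not tested. The log2 differences in ratio of -0.20 (Psmb8 to Psmb5), -0.20 (Psmb9 to Psmb6) and -0.43 (Psmb10 to Psmb7) ranged over omitted libraries from -0.32 to -0.0055, from -0.32 to -0.07 and from -0.52 to -0.24.

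With the replicate number as a block, 0 members and 0 of all tested genes were called, and the medians were -0.03 and -0.06. The block gave 421 tested genes an unadjusted p under 0.05 by edgeR, against 309 without it. For Psma6 this p was 0.0220 with the block and 0.0380 without. The numbers do not show a pairing, since deviations of libraries with the same number correlated at 0.05, 0.19 and -0.06 across genes. For libraries of unlike number, 1 from each group, the values ran from -0.22 to 0.23. The mean differences of same-numbered libraries in the 3 ratios equal those above, with exact sign-flip p of 0.75, 0.5 and 0.25, where 0.25 is the smallest possible. With 3 libraries a group, the interval reached past 1.5-fold for Psmd4 and every other member not counted among the 27 above.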
